A study of Saccharomyces x bayanus with 4 samples.

Results

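The 239 genes described here are nearly silent genes of NRRL Y-11845, a strain of the yeast Saccharomyces bayanus. Their genomic DNA signal was nevertheless well above background at both probes on every array. Every sample was 1 culture of this strain, grown to mid-log phase in rich medium. All 4 biological replicates form a single group, and no other strain, treatment or time was analysed here. Cy3-labelled cDNA made from total RNA was hybridised together with Cy5-labelled, sheared genomic DNA of the same strain on a 2-colour Agilent array with 2 probes per gene, and the dyes were not swapped. The log2 ratio of Cy3 to Cy5 therefore gives the RNA level of a gene relative to the gene itself in the genome, since most genes offer the genomic DNA a similar number of copies.

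The genes were chosen by that ratio. For each array, the log2 ratio of background-subtracted medians was averaged over the 2 probes of a gene and expressed relative to the median gene of that array, which stands at 0. The mean of this value over the 4 arrays is called V below. A gene was kept at a V of -3 or less, which is 8-fold or more below the median gene, when Cy5 was well above background at both probes on every array. Genes whose probe shared a stretch of 20 nt with the probe of another gene were left out, as were genes of the 3 assembly blocks 578, 626 and 678. Of 5482 genes measured, 292 (5.33%) had a V of -3 or less, and all of these passed the Cy5 criterion. The shared stretch removed 43 of them and the 3 blocks another 10. The remaining 239 genes are 4.75% of the 5028 genes that met every criterion other than V. The other 4789 of those are called the other eligible genes.

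Yeast keeps many genes off during rapid growth in rich medium. In the related Saccharomyces cerevisiae these include genes of meiosis and sporulation, genes for the use of other sugars, genes specific to a mating type, and gene families near chromosome ends that lie in silenced chromatin. This is background only. The files pair none of the gene identifiers with a gene product or a position, so which of these classes the 239 genes belong to was not analysed here. No probe sequence is printed, and at most 4 genes are identified. All other genes are described by their values and by the number of their assembly block. That number was read from the identifier, in which the number after the c is taken as the block and the number after the g as the order of genes along it.

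V of the nearly silent genes spanned -6.53 to -3.004, with quartiles of -4.63, -3.92 and -3.43. At the median, the ratio was 15.1-fold below that of the median gene. The values thinned out downwards, with 125 genes between -4 and -3, 75 between -5 and -4, 35 between -6 and -5, and 4 below -6. Nothing in the distribution set the group apart at its upper edge. The 3 genes just inside the threshold had V of -3.008, -3.005 and -3.004, and the 3 just outside had -2.996, -2.989 and -2.974. Within 0.25 of the threshold lay 37 genes inside and 41 outside. These values are a description of the choice, since V made it.

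**Figure D1:**
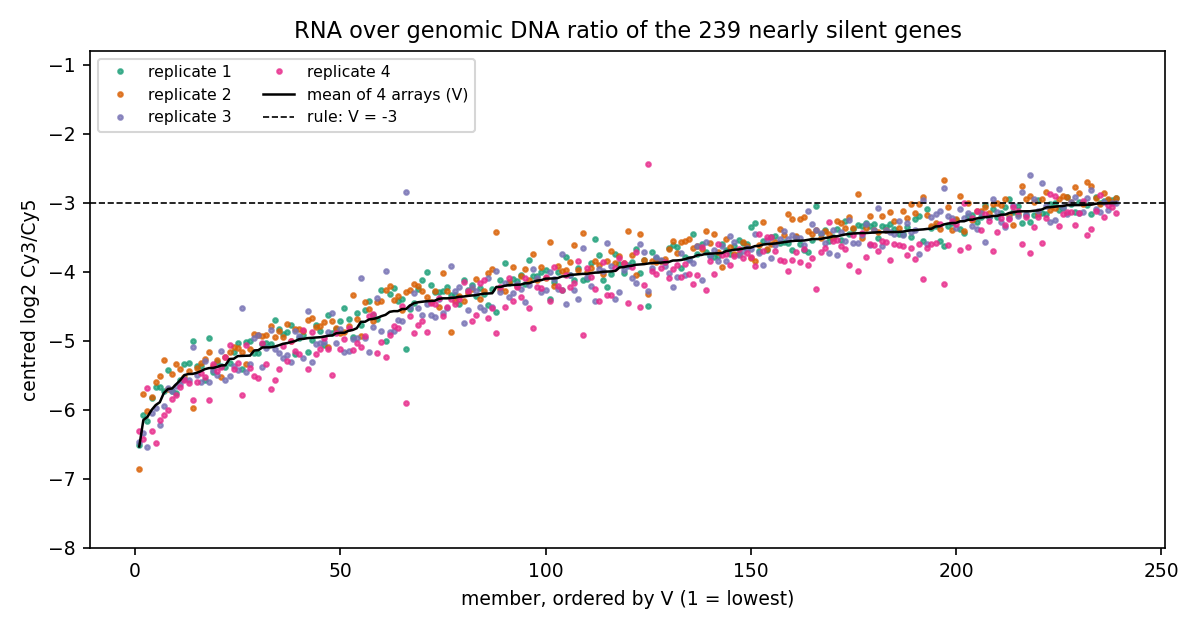
Centred log2 ratio of Cy3 to Cy5 (vertical axis) on each of the 4 arrays (coloured points) for the 239 nearly silent genes, ordered by V, the mean of the 4 arrays (black line). V spans -6.53 to -3.004, and the points of replicate 4 (pink) lie mostly under the line.

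Low Cy3, and not strong Cy5, set the ratio of most of these genes. Their median Cy3 intensity was 184, 202, 199 and 152 on replicates 1 to 4, against 2880, 3023, 3384 and 2642 in the other eligible genes. In Cy5, the median was 14849 ± 837 in the nearly silent genes and 14618 ± 800.3 in the other eligible genes (SD, n = 4 arrays). The lowest Cy5 intensity of any nearly silent gene was 4110, 4365, 4337 and 3488 on replicates 1 to 4. Relative to the median gene, the Cy5 signal was within 1 log2 unit for 226 (94.6%) of the nearly silent genes and 4607 (96.2%) of the other eligible genes. Because Cy5 is part of the ratio that chose the genes, these levels carry no test.

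A few genes owed their place partly to a strong genomic DNA signal. In Cy3 alone, 210 of the 239 genes were at or below -3 relative to the median gene, and 5 were above -2. Of the nearly silent genes, 9 had a Cy5 signal more than 1 log2 unit above the median gene and 4 more than 1 log2 unit below it. Among the 4789 other eligible genes, these counts were 114 and 68. The extreme case lay on block 415, with a Cy5 intensity of 65006 (2.14 log2 units above the median gene) and a Cy3 intensity of 890.4 (-1.65 relative to the median gene), for a V of -3.87. At the other end, 1 of the 2 nearly silent genes of block 540 had a Cy5 level of -1.86 relative to the median gene and a V of -5.005. No spot of its first probe and 1 spot of its second were well above background in Cy3, so this V rests on Cy3 near the floor.

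**Figure D2:**
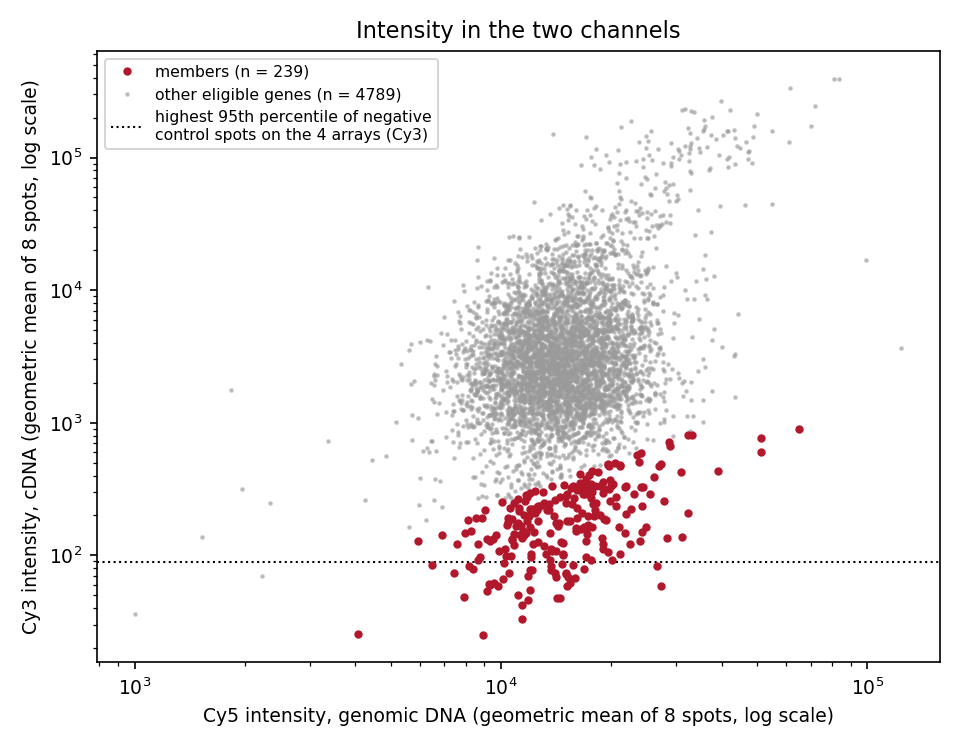
Cy3 intensity of cDNA against Cy5 intensity of genomic DNA, both on log scales, for the 239 nearly silent genes (red) and the 4789 other eligible genes (grey), each a geometric mean over 8 spots. The red genes span the same Cy5 range as most grey genes, and the dotted line is the highest of the 4 arrays' 95th percentiles of negative control spots, 89 in Cy3.

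Most nearly silent genes still gave a Cy3 signal above background. The scanning software called all 8 spots of a gene (2 probes on 4 arrays) well above background in Cy3 for 191 (79.9%) of the nearly silent genes and 4779 (99.8%) of the other eligible genes. A further 47 nearly silent genes had 1 to 7 such spots and 1 had none. The 48 genes with fewer than 8 such spots had a median V of -5.08, against -3.70 in the 191 with all 8. Each array also carried 77 negative control spots, whose Cy3 medians were 14, 14.5, 13 and 10. All 239 genes were above that median on every array. On replicates 1 to 4, 236, 205, 234 and 193 genes exceeded the 95th percentile of those controls, and 189 (79.1%) did so on all 4 arrays. The highest single control spot varied far more, at 128, 307, 88 and 309.5, and only 170, 70, 209 and 26 genes were brighter than it. The lowest levels were thus close to the floor of the array. The control spots were dim in Cy5 too, with 95th percentiles of 57.7, 240.6, 51 and 95.1 on replicates 1 to 4. They therefore do not show what Cy3 signal a spot bright in Cy5 gives without RNA of its gene. How much of the Cy3 signal came from RNA of the gene was not tested. In a bulk culture, a low level in every cell and a higher level in a few cells cannot be told apart.

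The lowest gene was sbay_c655-g1.1, with values of -6.50, -6.85, -6.47 and -6.30 on replicates 1 to 4 (V of -6.53 ± 0.23, SD, n = 4). Its Cy3 intensities were 52.9, 50.5, 72.8 and 63.5, while its Cy5 intensities were 25366, 28567, 29630 and 25894, well over the median gene. Only 4 of its 8 spots were well above background in Cy3, and its 2 probes averaged -6.84 and -6.23. The second lowest, sbay_c634-g30.1, had values of -6.07, -5.77, -6.33 and -6.42 (V of -6.15 ± 0.29). Its Cy3 intensities of 25.3, 34.2, 25.1 and 18.8 were not well above background in any spot, whereas its Cy5 averaged 8921. For this gene only a bound can be given. With local background subtracted and Cy3 set to the lowest signal well above background on each array, its ratio was at least 46.2-fold below the median gene. This bound holds for that subtraction only, and V was -4.56 (23.6-fold below) with normexp, -4.89 (29.6-fold) with processed signals and -5.02 (32.5-fold) with no background subtracted. The third lay on block 676, with values of -6.16, -6.02, -6.54 and -5.69 (V of -6.10 ± 0.35) and Cy3 intensities of 31.0, 37.0, 27.7 and 39.2, and 2 of its 8 spots were well above background. The fourth lay on block 634 like the second, with values of -5.84, -5.82, -6.05 and -6.31 (V of -6.004 ± 0.23). It was brighter, with Cy3 intensities of 89.4, 93.0, 95.2 and 60.8, and 7 of its 8 spots were well above background. The values of these 4 genes on the arrays overlap, so their order is not settled. The files give no name or function for any of them.

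The low level recurred on arrays that had no part in the choice. When genes were chosen by the same rule on 3 arrays, 241, 244, 233 and 227 genes qualified with replicates 1, 2, 3 and 4 left out. Of these, 229 (95.02%), 214 (87.7%), 217 (93.1%) and 222 (97.8%) were at or below -3 on the array left out, a mean of 93.4 ± 4.26% (SD, n = 4). The background is the share of all eligible genes at or below -3 on that array alone, which was 4.67%, 4.35%, 4.69% and 5.25%. All of the chosen genes were at or below -2 on the array left out, and the highest single value was -2.44. The arrays share the genomic DNA reference and the slide, and so are not fully independent.

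The 4 arrays differed slightly in how low they placed the genes. The median over the nearly silent genes was -3.87, -3.83, -3.97 and -4.07 on replicates 1 to 4, a mean of -3.93 ± 0.11, against 0.06 in the other eligible genes. Of the 239 genes, 141 (59.0%) were lowest on replicate 4 and 74 on replicate 3, and only 13 and 11 on replicates 1 and 2. In the other eligible genes, 30.3% were lowest on replicate 4, and in the 233 eligible genes between -3 and -2 the share was 49.4%. The spread of all genes moved the same way, with an SD of 1.77, 1.74, 1.78 and 1.85 log2 units over genes on replicates 1 to 4. After quantile normalization, which gives all arrays the same distribution, the nearly silent genes were lowest on replicate 4 in 60 cases (25.1%) and on replicate 3 in 78. Equal distributions make the low end of every array alike, so a smaller share on replicate 4 was largely fixed in advance. The part of the scale of replicate 4 in its low values was not tested.

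Variation between arrays was larger in the RNA channel than in the genomic DNA channel. The SD over arrays had a median of 0.202 log2 units in the nearly silent genes, against 0.105 in the other eligible genes and 0.143 in the eligible genes between -3 and -2. In Cy3 alone the median SD was 0.209 in the nearly silent genes and 0.129 in the other eligible genes. In Cy5 alone it was 0.0544 and 0.0547 in the same groups. An SD of 0.5 or more was found in 10 nearly silent genes (4.18%) and in 40 other eligible genes (0.835%). Among the 233 eligible genes between -3 and -2 it was found in 9 (3.86%), close to the share in the nearly silent genes. The 48 genes with a spot not well above background had a median SD of 0.230, and the 191 others one of 0.193.

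Of the 10 most variable genes, 8 had all 8 spots well above background in Cy3. Their median SD was 0.632 in Cy3 and 0.0552 in Cy5. The most variable lay on block 658, with values of -5.12, -4.29, -2.84 and -5.91 on replicates 1 to 4 (SD 1.31). Its Cy3 intensities were 82.0, 157, 442 and 43.9, and its Cy5 intensities were 15100, 14975, 14600 and 13594. Its 2 probes moved together, with -5.18, -4.41, -2.96 and -5.99 from the first and -5.08, -4.18, -2.72 and -5.81 from the second. The next lay on block 540 but was not the gene of that block with weak Cy5 given above. It departed on a single array, with -4.49, -4.33, -4.27 and -2.44 and Cy3 intensities of 157, 175, 204 and 628. Both of its probes were high on replicate 4, at -2.39 and -2.48. Over the 10 genes, both probes were lowest on the same array in 8 cases and highest on the same array in 5.

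Most of these genes were high in the same pair of cultures. In 7 of the 10, both replicate 2 and replicate 3 were above both replicate 1 and replicate 4, a pattern noticed after the values were seen. The same held for 28 of the 40 other eligible genes with an SD of 0.5 or more, a share of 70% in both groups. Among the 229 nearly silent genes with a smaller SD it held for 64 (27.9%), and among all other eligible genes for 880 (18.4%). After quantile normalization, 7 of the 10 and 29 of the 40 showed it.

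**Figure D3:**
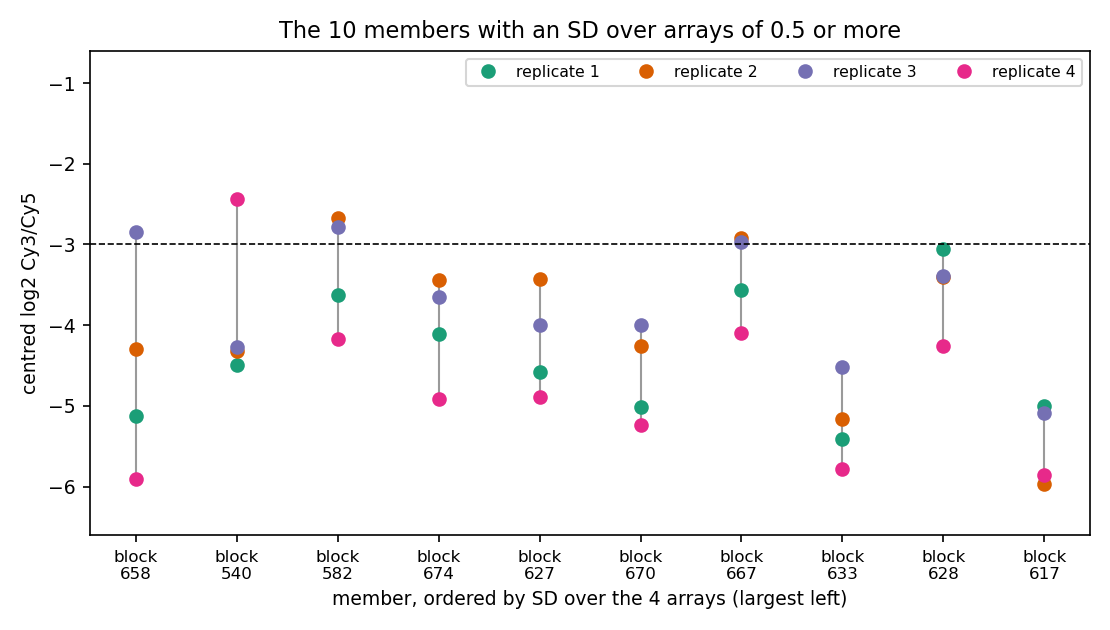
Centred log2 ratio of Cy3 to Cy5 on each of the 4 arrays for the 10 nearly silent genes with an SD over arrays of 0.5 or more, named by assembly block and ordered by SD. Replicate 4 (pink) is lowest in 8 of them, and the gene of block 540 shown here is high on replicate 4 alone.

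The 2 probes of a gene read different stretches of it, so each can serve as a check of the other. Both probes were at or below -3 in 204 (85.4%) of the 239 genes, and 1 probe was above -3 in the other 35. When genes were chosen on the first probe alone, 238 qualified, and the second probe was at or below -3 in 204 (85.7%), against a background of 4.69% of the eligible genes. When they were chosen on the second probe, 236 qualified and the first probe was at or below -3 in 204 (86.4%), against 4.73%. A cross-check is only partly independent where the probes overlap in sequence, as they did in 71 (29.7%) of the nearly silent genes and 1025 (21.4%) of the other eligible genes. With those left out, the shares were 87.1% and 82.1%. Not every gene held up. Over all pairs, the highest second value was 1.54 for a gene chosen on its first probe, whose probes overlap. Among genes chosen on the second probe, the highest was -0.53. With overlapping pairs left out, these highest values were -1.99 and -0.53. Across the 239 genes, the probes correlated with a Pearson's r of 0.657. The points share arrays, the genomic DNA reference and in part the sequence, and the choice by V narrows their range.

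The difference between the 2 probes was tested. It was not itself a criterion of the rule, but V is the mean of the same 2 values. A gene can thus pass on the strength of 1 very low probe, and 35 genes passed with 1 probe above -3. The choice can therefore raise the share of nearly silent genes whose probes differ, and by how much was not tested. For every gene, the log2 ratio of the second probe minus that of the first was compared with 0 over the 4 arrays with limma, and a gene was called at a Benjamini-Hochberg adjusted p under 0.05 and a difference of at least 1 log2 unit. Over all 5471 genes tested, 299 (5.47%) were called. Of the 239 nearly silent genes 30 (12.6%) were called, and of 4787 other eligible genes 223 (4.66%). In the nearly silent genes the second probe was the lower one in 21 of the 30 (70%), and in the other eligible genes in 188 (84.3%). Among the 71 nearly silent genes with overlapping probes, 2 were called. Restricting the test to genes well above background in both channels left 22 of 191 nearly silent genes (11.5%) and 4.54% of the other eligible genes. With the Cy3 of spots not well above background set to the bound described above, 31 were called, including the 30. Without the minimum difference, 148 nearly silent genes (61.9%) were past the adjusted p, as were 60.6% of all genes, and this share was close to the background.

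**Figure D4:**
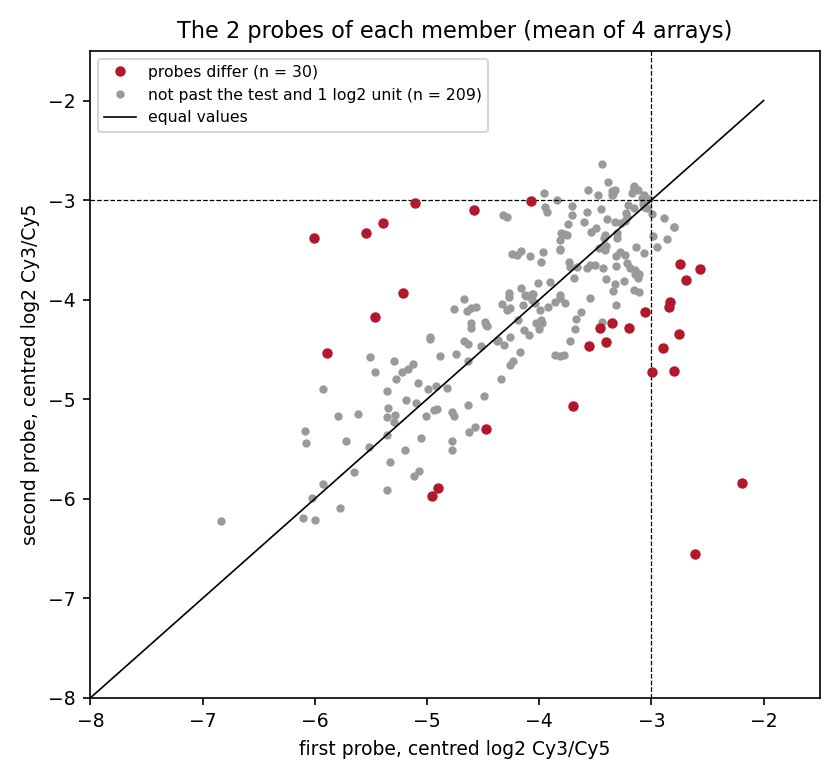
Centred log2 ratio of Cy3 to Cy5 of the second probe against that of the first for the 239 nearly silent genes (mean of 4 arrays), with the 30 genes whose probes differ in red and the other 209 in grey. The 2 red points at the lower right are genes whose first probe is above -3 and whose second is below -5.8.

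More nearly silent genes had differing probes in the RNA channel than in the genomic DNA channel. Tested in Cy3 alone, 36 nearly silent genes (15.1%) were called, against 2.99% of the other eligible genes and 4.33% of all genes. Of the 36, 19 were among the 30. Tested in Cy5 alone, 12 (5.02%) were called, against 3.82% of the other eligible genes and 4.57% of all genes. Of the 12, 1 was among the 30. The order of the probes along the gene could be read where they overlap, and in all 71 such pairs the second probe lay upstream of the first. In the other pairs the order is not given by the files, but 35.1% of first probes and 3.35% of second probes of the nearly silent genes ended in a stop codon (36.0% and 5.43% in the other eligible genes). The second probe was lower than the first in 154 of the 239 genes (64.4%), with a median difference of -0.16, and in 63.4% of the other eligible genes, with -0.12.

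The probes differed most in 2 genes. For sbay_c628-g23.1 the first probe gave -2.11, -2.25, -3.09 and -3.01 on replicates 1 to 4, and the second -6.56, -6.18, -6.66 and -6.81. The first probe had Cy3 intensities of 734, 661, 421 and 322, and the second 29, 40, 32.5 and 22.5, at Cy5 intensities of 12622 to 15526 and 14008 to 16129. All 4 spots of the first probe were well above background in Cy3, but only 1 of the 4 of the second was. The measured difference of -4.13, taken before the probes were centred, therefore has no exact size. With the dim spots set to that bound, the difference was -3.71 or larger in size (SE 0.167, limma adjusted p = 8.32e-06). It was -3.247 with no background subtracted and -2.82 with normexp. In sbay_c514-g8.1 the first probe gave -1.70, -1.90, -2.59 and -2.57, and the second -5.39, -5.80, -6.25 and -5.93. Its Cy3 intensities were 768, 675, 483.5 and 333 at the first probe and 43.5, 35.0, 27.0 and 29.5 at the second, where again 1 of 4 spots was well above background. The measured difference was -3.84, and with the dim spots at their bound -3.54 (SE 0.141, limma adjusted p = 6.56e-06). It was -2.9997 with no background subtracted and -2.64 with normexp. Neither gene could enter the test restricted to spots well above background. In Cy5 alone the differences of these genes were 0.0647 and -0.18. The V of sbay_c628-g23.1 was -4.58 and that of sbay_c514-g8.1 was -4.01, each a mean of 2 unlike probes. With processed signals V was -2.49 for sbay_c628-g23.1 and -2.16 for sbay_c514-g8.1, and both missed the threshold. In the deposited log2 table V was -3.34 for sbay_c628-g23.1 and -2.89 for sbay_c514-g8.1, which missed it there too. On both genes the first probe was higher on replicates 1 and 2 than on replicates 3 and 4. The largest difference the other way measured 2.44.

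The base composition of the probes was like that of the rest. The GC content had quartiles of 38.2, 40 and 42.7% in the nearly silent genes and the same quartiles in the other eligible genes. Every probe of both groups had at least 1 sense reading frame without a stop codon before its final codon, and 84.5% and 86.8% had such a frame on the antisense strand. Runs of 6 or more of the same base occurred in 11.7% of the nearly silent genes and 9.19% of the other eligible genes.

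The genes were scattered over the assembly, with some next to each other. They lay on 126 of the 331 blocks that held an eligible gene, and 67 blocks held a single one. The most on a block was 6 of 75 eligible genes, on block 672. Among blocks of 10 or more eligible genes, the share was highest on block 582, with 3 of 10 (30%). By consecutive numbers, 53 nearly silent genes (22.2%) were next to another nearly silent gene, against 349 of the other eligible genes (7.29%) that were next to one. The share was 19.9%, against 5.87%, when only the 191 genes with every spot well above background were kept. Those 53 genes formed 20 pairs, 3 runs of 3 and 1 run of 4, and the other 186 stood alone. Other eligible genes next to a nearly silent gene had a median V of -0.16 (n = 349), against 0.07 in the rest. Members of 1 block share a stretch of chromosome and are not independent of each other.

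The run of 4 was on block 654, with V of -3.74, -3.83, -4.32 and -3.45. The 3 genes before it were at 0.95, 1.76 and 1.98, and the numbers after it were not on the array. On block 598, 3 consecutive genes had -5.57, -4.54 and -4.82, between neighbours at -0.26 and -0.52. On block 582 the values were -3.32, -3.82 and -3.69, between 3.18 and -0.80. On block 667 they were -4.67, -3.39 and -4.05, between -0.89 and -0.06. At the measured edges, the neighbour exceeded the nearest gene of the run by 2.89 to 6.50 log2 units. The sign of these steps was fixed by the choice, since a run ends at an eligible gene with V above -3. The longest stretch shared by probes of different genes in a run was 7 nt. Genes first or last on their block were 37 (15.5%) of the nearly silent genes and 525 (10.96%) of the other eligible genes. On blocks of 10 or more genes these shares were 9.18% and 6.55%. A block end is where the assembly stops and need not be a chromosome end.

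**Figure D5:**
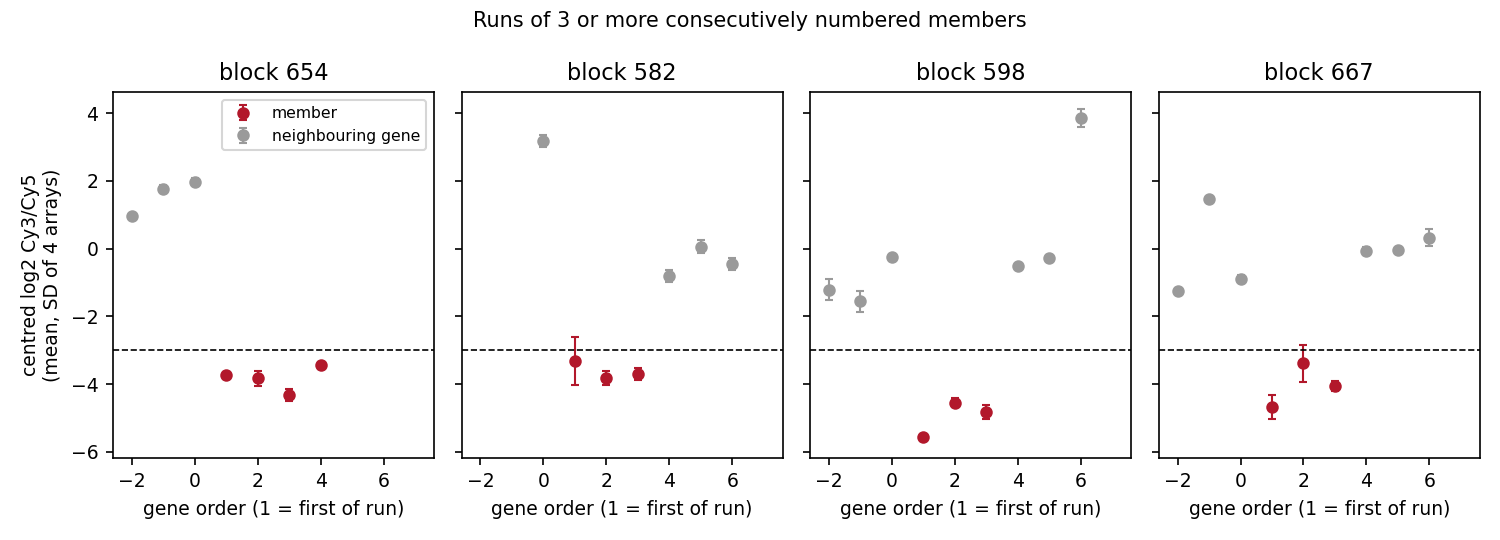
V (mean and SD of 4 arrays, centred log2 ratio of Cy3 to Cy5) by gene order in the 4 runs of 3 or more consecutively numbered nearly silent genes (red) and their neighbours on the array (grey). Position 1 is the first gene of a run, and the dashed line marks -3.

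The choice depended on how the signals were taken. With the signals as processed by the scanning software, 27 genes qualified, 24 of them among the 239, and the median V of the 239 genes was -1.99. On that scale the spread of all genes was also narrower, with an SD over gene means of 0.99 log2 units against 1.78. The other ways of taking the signals or scaling the arrays gave 215 to 241 genes.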

How the data were processed

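Each of the 4 RNA samples was measured on 1 array against genomic DNA, and all arrays were on 1 slide with 1 scan date. The deposited scanner tables give intensity per spot on a linear scale, with the local background, and per the file headers were made with Agilent Feature Extraction 10.1.1.1, another version than the methods of the study name. The authors describe background-subtracted medians, a log2 ratio of Cy3 to Cy5, its median over a gene's probes and quantile normalization. The table of log2 values that the authors also deposited equalled the log2 of the mean ratio of a gene's probes, with no background subtracted, for 97.3%, 96.1%, 98.7% and 99.2% of genes on replicates 1 to 4 (tolerance 1e-06), and had column medians of -2.36, -2.25, -2.17 and -2.33, so it was not centred. It served as an alternative only.

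The 239 members, the gene lists and the tests were chosen with earlier results of these data known. The 536 control spots were left out of gene values, spots set aside as outliers by the software were left out of the probe test only, and the median gene of each array was set to 0. Channel intensities of a gene are geometric means of its 2 probes, and the first and second probe are ordered by probe name. Probe differences needed values on at least 3 arrays and were set against 0 by the 2-sided moderated test of limma (3.58.1, run in R 4.3.3). All else used Python (3.11.15) and its packages pandas (2.3.3), numpy (2.4.6) and scipy (1.17.1). SDs are over the 4 arrays, whose number limits the precision. Genes named by identifier are the 2 with the lowest V and the 2 with the largest probe difference past the test, and no more were named because the files pair identifiers with no gene name. Alternatives were other background corrections (none, normexp with an offset of 50), mean pixels, processed signals, the deposited log2 table, quantile normalization, outlier spots left out, other thresholds and stretches, single channels, and each replicate left out.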

Additional observations from a re-analysis of the deposited data

Results flagged for a closer look

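Of 40 sets of 4 array values given in the report, 2 had 1 array far from the other 3. Chance alone gives about 1 in 20 for independent sets that were not selected. These sets share the same arrays, and some are genes picked for a large SD over them, so that rate does not carry over. The more variable of the 2 nearly silent genes of block 540 stood at -2.44 on replicate 4 and between -4.49 and -4.27 on the other arrays. Both of its probes showed this. The median local Cy3 background around the spots of these genes was 26 on replicate 1 and 27.8 to 28 on the other arrays. Over all 239 genes, 11 (4.60%) had 1 array as far from the other 3, and this was replicate 4 in 6 of them, against 5.07% of the other eligible genes.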

How the results depend on the processing

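The number of nearly silent genes stayed within 1.5 times 239 under every alternative run except the processed signals, which gave 27; the cause was not tested. The thresholds of -2.5 and -3.5 gave 322 and 169 genes, and leaving out a replicate gave 227 to 244. The count of 30 genes whose probes differ moved to 48 with processed signals (14 of them among the 30), to 148 with no minimum difference, to 5 with a minimum of 2 log2 units and to 12 in Cy5 alone, and was 29 to 32 with a replicate left out. In Cy5 alone the difference of sbay_c628-g23.1 reversed to 0.0647 (limma adjusted p = 0.232) and that of sbay_c514-g8.1 was -0.18 (0.0461). Over the other settings that could test them, the difference of the first was -4.25 to -2.56 (adjusted p 3.93e-07 to 2.68e-04) and that of the second -4.02 to -2.64 (1.88e-07 to 9.23e-05), and with only genes well above background in both channels neither could be tested. V of the 4 named genes moved beyond the spread between arrays with no background subtracted, processed signals and the deposited log2 table, and for 3 of them also with normexp. The next ranges are over every way of taking the signals or scaling the arrays, the main one included. V was -6.58 to -4.68 for sbay_c655-g1.1, -6.16 to -4.56 for sbay_c634-g30.1, -4.58 to -2.49 for sbay_c628-g23.1 and -4.02 to -2.16 for sbay_c514-g8.1. The share of genes whose second reading by the other probe was at or below -3 was 86.1% over both probes and 77.4% with normexp, and was 84.5% to 85.8% with a replicate left out. The share next to another nearly silent gene was 21.7% to 22.5% with a replicate left out. Leaving out replicates for these 2 shares, the restriction to genes with every spot well above background, and the bound for dim spots, were added after seeing the data. No paired analysis was possible because all samples form 1 group. The limits are the floor in Cy3, where 48 of the 239 genes had a spot not well above background, and the lack of gene names.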
